A study of Mus musculus with 4 samples.

Results

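On arrays that set the DNA of 4 mouse liver tumours against a pool of normal liver DNA, 912 autosomal probes lay at a log2 ratio of tumour over pool of -1 or lower in every tumour. These are the probes described here, and they are 0.593% of the 153764 probes on chromosomes 1 to 19 outside 2 windows. The windows lie around the knocked-out genes, from 44.4 to 94.4 Mb on chromosome 11 (Trp53) and from 66.7 to 116.7 Mb on chromosome 7 (Fah). Members were chosen on the log2 ratios themselves, so their depth and their agreement between tumours are descriptions and were given no test. A log2 ratio of -1 is what loss of a single copy in every diploid cell would give, and the ploidy of these cells was not measured.

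The tumours (239, 240, 244 and 252) came from livers of FAH-/-, Trp53-/- mice labelled male. Fah encodes the last enzyme of tyrosine breakdown, and mice that lack it are kept alive with NTBC, an inhibitor that acts further upstream in that pathway. The mice drank NTBC at 7.5 mg per L, then a regimen of 2.5% of that dose for 6 months. The other DNA on every array was the pooled liver DNA of 3 wild-type (FAH+/+, Trp53+/+) littermates labelled male. Tumour DNA carried Cy5 and the pool Cy3, with no dye swap, and the pool counts as 1 control sample. Strain and age were not stated in the labels. Non-tumour DNA of the tumour-bearing mice was not analysed here, so differences that a mouse inherited and changes that arose in its tumour cannot be told apart.

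Each array held 180880 spots, and 4 arrays limit the precision. Processed signals were well above background for 99.7% to 99.9% of autosomal probes in the tumour colour and for 99.0% to 99.1% in the pool colour. The median of X was -0.09, -0.11, -0.30 and 0.73 in tumours 239, 240, 244 and 252, and that of Y was -0.31, -0.14, -1.20 and -2.43. Tumour 252 thus goes against its label of male, and the counts by depth, run, chromosome, gene and list are also given for probes chosen without it.

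An array of this kind reads the amount of DNA that matches each short probe. A probe reads low when that stretch is missing from the tumour DNA, when it is present in fewer copies, or when its sequence differs from the probe so that the DNA binds less well. Mouse strains differ from each other both by small sequence variants and by deletions. Deletions in tumours can span many neighbouring probes, and long genes of adhesion and synapse proteins are known as places where they recur.

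The sequences of the 6 members with the lowest mean are shown first, since they carry the lowest ratios. For 5 of the 6 the tumour signal was not well above background on any array, so their order is not one of levels. 4930555B11Rik and 4930432J09Rik are RIKEN transcripts, named after their values were seen. Positions are those of mm9, the build named in the file headers, the sequence is that of the probe as the files give it, and its strand is not given there. Capitals mark the CpG dinucleotides.
no gene name, chr4:67171384-67171443: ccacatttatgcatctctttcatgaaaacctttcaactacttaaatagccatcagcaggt
no gene name, chr4:70659930-70659989: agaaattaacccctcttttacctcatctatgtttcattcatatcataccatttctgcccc
no gene name, chr1:101077186-101077240: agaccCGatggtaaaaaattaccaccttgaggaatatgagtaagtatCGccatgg
4930555B11Rik chr2:57036487-57036546: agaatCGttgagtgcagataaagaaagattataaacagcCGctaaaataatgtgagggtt
4930432J09Rik chr14:104397827-104397886: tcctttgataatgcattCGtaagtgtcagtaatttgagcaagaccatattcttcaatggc
no gene name, chr13:94368669-94368728: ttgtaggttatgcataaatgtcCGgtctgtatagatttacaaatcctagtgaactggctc

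The members of the 4 runs of 3 neighbouring members are shown next, since these are the longest stretches in the set. The first probe of the run without a gene name is the first probe shown above.
no gene name, chr4:67196957-67197016: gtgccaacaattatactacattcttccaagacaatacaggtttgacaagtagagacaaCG
no gene name, chr4:67237787-67237846: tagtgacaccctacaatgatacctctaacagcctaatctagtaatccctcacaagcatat
Ptprd chr4:75901954-75902013: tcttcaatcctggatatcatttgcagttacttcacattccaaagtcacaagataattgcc
Ptprd chr4:75910952-75911011: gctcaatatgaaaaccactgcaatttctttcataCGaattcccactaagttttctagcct
Ptprd chr4:75926793-75926852: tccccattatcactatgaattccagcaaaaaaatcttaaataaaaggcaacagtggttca
ENSMUST00000035017 chr9:117884082-117884141: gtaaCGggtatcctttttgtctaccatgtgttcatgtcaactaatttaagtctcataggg
ENSMUST00000035017 chr9:117899574-117899633: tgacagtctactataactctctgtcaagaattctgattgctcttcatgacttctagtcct
ENSMUST00000035017 chr9:117905339-117905398: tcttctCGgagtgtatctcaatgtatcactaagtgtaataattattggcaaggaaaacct
Ctnnd2 chr15:30446329-30446388: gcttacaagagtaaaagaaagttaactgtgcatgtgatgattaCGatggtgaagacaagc
Ctnnd2 chr15:30452024-30452083: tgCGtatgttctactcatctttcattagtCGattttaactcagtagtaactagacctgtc
Ctnnd2 chr15:30461529-30461588: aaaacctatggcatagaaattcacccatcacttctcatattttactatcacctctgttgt

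The last 4 sequences are those of the members whose log2 ratios differed most between tumours. They were chosen after their values were seen.
no gene name, chr12:93503136-93503195: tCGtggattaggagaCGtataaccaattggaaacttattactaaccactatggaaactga
Daglb chr5:144234863-144234922: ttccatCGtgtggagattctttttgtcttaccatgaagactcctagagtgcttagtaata
Mmel1 chr4:154252689-154252748: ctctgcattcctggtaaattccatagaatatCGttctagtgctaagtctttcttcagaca
Frmd3 chr4:73679539-73679598: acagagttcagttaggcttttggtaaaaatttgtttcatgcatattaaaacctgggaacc

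Members lay at similar depths in all 4 tumours. Their median log2 ratio was -1.43, -1.46, -1.55 and -1.42 in tumours 239, 240, 244 and 252, and the median over members of the mean over tumours was -1.45. The lowest ratios were -7.09, -6.25, -7.07 and -6.65 in that order of tumours, on tumour signals near background. Single arrays held more probes at or below -1, namely 1739 probes (1.13%) in tumour 239, 1685 (1.10%) in 240, 2344 (1.52%) in 244 and 1628 (1.06%) in 252. Tumour 244 had the most low probes and the lowest member median.

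**Figure D1:**
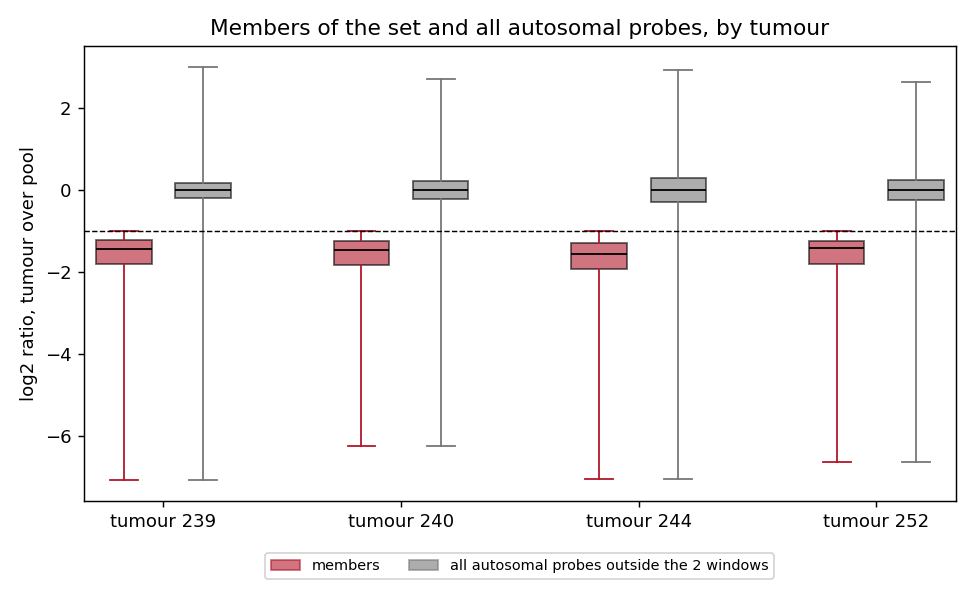
Log2 ratio of tumour over pool on the vertical axis for the 912 members (red, left) and all autosomal probes outside the 2 windows (grey, right) in each tumour. Boxes run from the first to the third quartile with the median as a line, whiskers reach the lowest and highest probe, and the dashed line is the threshold of -1. The member medians lie between -1.55 and -1.42 in all 4 tumours.

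Most members sat just below the threshold and a small number sat far below it. By mean over tumours, 498 members (54.6%) lay above -1.5, 241 from -1.5 to -2, 118 from -2 to -3, 33 from -3 to -4 and 22 at -4 or lower, where most tumour signals were not well above background on every array. Without tumour 252 in the choice and the mean, 589 of 1015 lay above -1.5 and 21 at -4 or lower. The 218 members whose highest array lay between -1.1 and -1 had a median mean of -1.20. The 284 probes just outside, with a highest array between -1 and -0.9, had a median mean of -1.09. The number of probes therefore kept growing across the threshold without a gap, and the set has no natural upper edge.

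Values of a member differed little between tumours. The median SD between the 4 arrays was 0.147 for members and 0.162 for all autosomal probes outside the windows. The range over the 4 tumours stayed under 0.5 for 749 members (82.1%) and for 76.6% of all these probes. It passed 1 in 20 members and 1.5 in 4 members. Since all 4 arrays share the pool, the slide and the dye orientation, a low value in all 4 arrays is not 4 independent observations.

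Leaving 1 tumour out of the choice showed how often it followed the other 3. Of the 1015 probes at -1 or lower in tumours 239, 240 and 244, 912 (89.9%) were also at -1 or lower in tumour 252. The same share was 86.9% of 1049 for tumour 239, 94.5% of 965 for tumour 240 and 89.7% of 1017 for tumour 244. These shares rest on the ratios of the rule and on a pool that all arrays share, and how much of them the shared pool gives was not tested. In total 398 probes were low on exactly 3 arrays, and the remaining array lay between -1 and -0.7 for 353 of them (88.7%) and above -0.4 for 7.

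The 4 members that differed most are set out here by tumour. The chr12:93503136-93503195 probe, with no gene name, was at -7.09 and -7.07 in tumours 239 and 244, and at -1.36 and -2.02 in tumours 240 and 252. Its processed tumour signals were 21.1 and 18.8 in tumours 239 and 244, not well above background, and 905 and 613 in 240 and 252, while the pool gave 2278 to 2835. Tumours thus fell into a pair near background and a pair with measurable signal, and chromosome 12 as a whole had medians of -0.38 in 239 and 244, -0.20 in 240 and -0.24 in 252. The Daglb probe, in the gene of a diacylglycerol lipase, was at -1.19, -1.37, -1.66 and -3.81 in tumours 239, 240, 244 and 252, lowest in 252. The Mmel1 probe, in the gene of a membrane metalloprotease, was at -3.22, -3.61, -2.55 and -1.61, highest in 252. The Frmd3 probe, in the gene of a FERM domain protein, was at -3.54, -3.60, -5.28 and -4.44, and its tumour signal was not well above background on any array.

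The signals behind the ratios were measurable for most members. The median member had a processed signal of 496 in the tumours and 1475 in the pool, whereas the median of all other probes was 970 in the tumours and 947 in the pool. Members were thus brighter than other probes in the pool and dimmer in the tumours, and both signals are parts of the ratio that chose them. With probes split into 4 equal classes of pool signal, members made up 0.146% of the dimmest class, 0.396% and 0.851% of the next and 0.981% of the brightest. A dim probe has less room to fall, and its part in these shares was not tested.

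For 857 members the tumour signal was well above background on all 4 arrays, for 22 on 1 to 3 arrays and for 33 on none. Those 33 have only a bound, so their log2 ratios are not levels: the pool exceeded the tumours at least 1.60-fold to at least 45.3-fold, with a median bound of 7.60-fold. The bound sets the pool's normalised signal against the higher of the probe's own tumour signal and the lowest tumour signal well above background on the array. It was averaged over the 4 arrays as a log2 ratio, so the bound of a single array can be lower. The probe with the lowest ratio, at chr4:67171384-67171443, had tumour signals of 20.3, 26.6, 18.6 and 17.2 against pool signals of 1875, 1754, 1834 and 1748, a pool excess of at least 20.7-fold. The next, at chr4:70659930-70659989, had tumour signals of 44.0, 51.7, 68.9 and 45.4 against pool signals of 3814, 3878, 4092 and 3986, and the largest bound in the set, at least 45.3-fold. In both cases all 4 tumours were far below the pool, which follows from showing the members of lowest ratio. The probe at chr1:101077186-101077240, gave ratios of -5.15, -6.05, -6.31 and -5.34 in tumours 239, 240, 244 and 252 and a bound of at least 18.3-fold. The 4930432J09Rik probe had a bound of at least 9.88-fold and the chromosome 13 probe one of at least 8.61-fold. The 4930555B11Rik probe was at -5.33, -5.52, -5.20 and -5.58, with tumour signal well above background on 1 of 4 arrays.

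**Figure D2:**
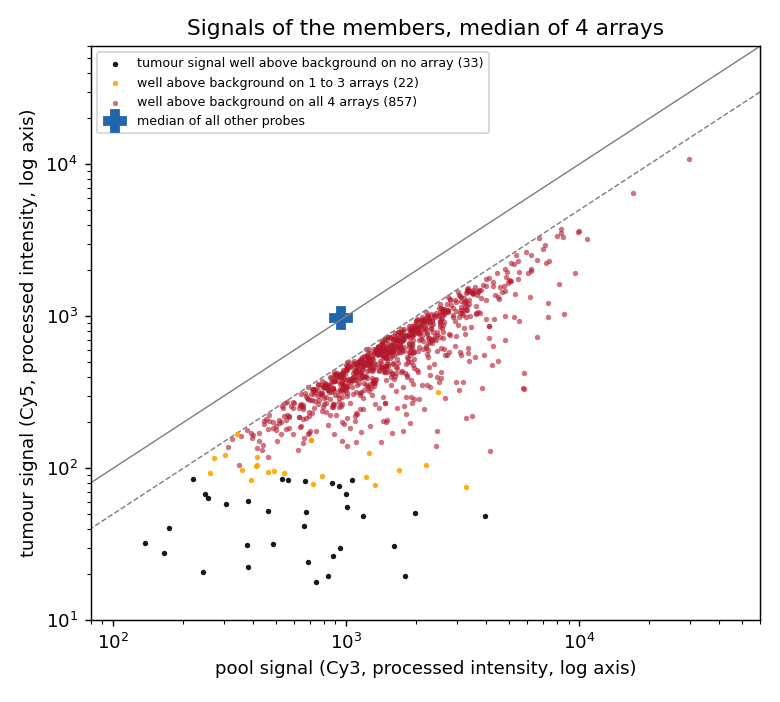
Processed tumour signal (Cy5, vertical, log axis) against processed pool signal (Cy3, horizontal, log axis) for each member, as the median of 4 arrays. Colours mark on how many arrays the tumour signal was well above background, the solid line is equality, the dashed line a ratio of 0.5 and the blue cross the median of all other probes. The 33 black points are the members with only a bound.

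Probes that are printed 5 times show the spread between spots within an array. Of 902 such autosomal probes outside the windows, 5 were members (0.554%, beside 0.593% of all probes). They lay in Sfxn1, a mitochondrial serine transporter, in Naip5, a sensor of bacterial flagellin, in Kcnn2, a potassium channel, in Dcc, a netrin receptor, and in an unnamed stretch of chromosome 5. The unnamed probe was at -1.31, -1.46, -1.43 and -1.47 and the Sfxn1 probe at -1.12, -1.26, -1.39 and -1.06 in tumours 239, 240, 244 and 252. The Dcc probe was at -1.46, -1.59, -1.29 and -1.49 and the Kcnn2 probe at -1.35, -1.37, -1.06 and -1.21, and the Naip5 probe averaged -1.06. All 5 were thus near the threshold rather than among the deep members. Of the 99 spots of these 5 members, 92 were at -1 or lower and the highest was at -0.88. These spots were averaged into the ratios that chose the members, so their low level follows from the choice. The SD between spots on an array was 0.034 to 0.263, median 0.121, and 0.107 for all probes printed 5 times. These genes were named after their values were seen.

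Members were mostly isolated. In probe order, 856 of the 912 had no member next to them, 44 lay in 22 pairs and 12 in 4 runs of 3, so that 56 members (6.14%) lay in runs. Without tumour 252 in the choice, 62 of 1015 members (6.11%) lay in 25 pairs and 4 runs of 3. Among probes well above background in both colours on all arrays, the runs in Ptprd and Ctnnd2 were found and the other 2 were not. Under normexp background correction the run without a gene name was not found. Allowing 1 non-member inside a run gave no run of more than 3 members.

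The probes next to a lone member were near 0. The median of the mean log2 ratio was -0.07 for the probe before, -1.44 for the lone member and -0.07 for the probe after. Both neighbours lay above -0.5 for 655 of the 856 (76.5%), and for 75.9% of 953 lone members when tumour 252 was left out. Both lay at -0.5 or lower for 27. At each of the 5 positions on either side, at most 15.0% of probes were at -0.5 or lower, with 14.8% just before and 11.8% just after the member, against 6.88% of all autosomal probes. Lone members were therefore single low probes in most cases, and low probes were somewhat more frequent around them. The comparison was not adjusted for shifts of whole chromosomes, and their part in it was not tested. The distance to a neighbouring probe was 12.2 kb in the median, beside 10.8 kb between neighbouring autosomal probes, so a low stretch shorter than that spacing would reach 1 probe only.

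**Figure D3:**
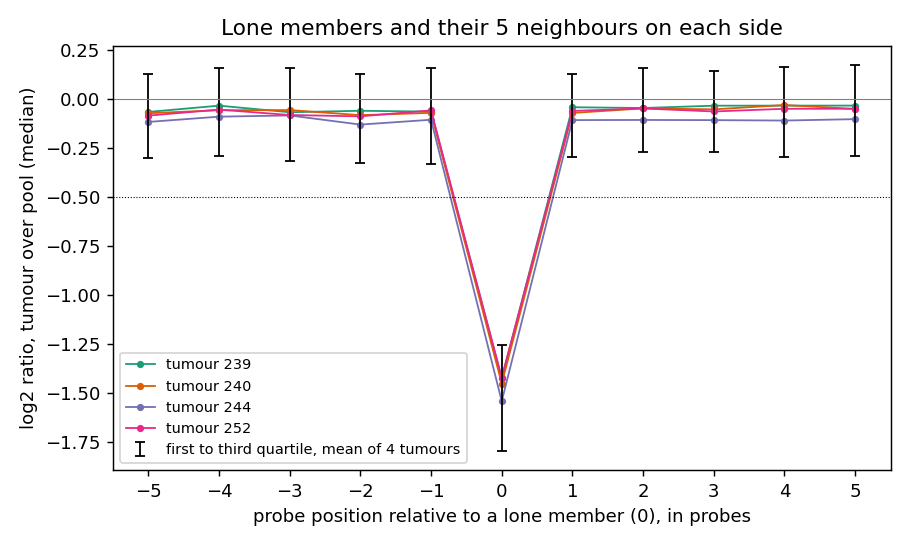
Median log2 ratio of tumour over pool (vertical) for the 856 lone members at position 0 and the 5 probes on each side (horizontal, in probes), with 1 line per tumour. Bars span the first to the third quartile of the mean over tumours. The medians beside the member lie between -0.13 and -0.03 in all 4 tumours.

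The run with the lowest mean ratio had no gene name and spanned 66.5 kb at chr4:67171384-67237846. It averaged -3.65, -3.43, -3.88 and -3.68 in tumours 239, 240, 244 and 252, which includes a first probe with only a bound. The mean over tumours was -3.66, but -2.25 over its 2 probes well above background and -2.52 under normexp. Its middle probe was much higher than its edges, at -1.24, -1.20, -1.59 and -1.36, and the edge probes were at -6.48 and -3.15 in the mean. The next probes outside were at 0.90 and -0.36 in the mean, so the low level was neither even inside the run nor shared by its surroundings.

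The run in ENSMUST00000035017, a transcript that the array design names and that matched no symbol here, spanned 21.3 kb at chr9:117884082-117905398. Its 3 probes averaged -3.11, -2.86, -2.92 and -3.18 in tumours 239, 240, 244 and 252, and 2 of them had no tumour signal well above background on any array. The mean over tumours was -3.02, but -1.85 on the probe with measurable signal and -1.58 under normexp. The probe before it was at -0.78 and the probe after it at -0.08. The other 3 probes of that transcript had a median of -0.08.

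The run in Ctnnd2, which encodes delta-catenin, a junction protein of neurons, spanned 15.3 kb at chr15:30446329-30461588. It averaged -1.86, -2.10, -2.07 and -1.97 in tumours 239, 240, 244 and 252, with neighbours at -0.00 and 0.18. The run in Ptprd, a receptor tyrosine phosphatase of synaptic adhesion, spanned 24.9 kb at chr4:75901954-75926852. It averaged -1.48, -1.45, -1.78 and -1.46, with neighbours at -0.09 and -0.03. Both runs thus ended within a probe on each side.

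Pairs spanned 6.08 to 68.4 kb, with a median of 13.5 kb, and averaged from -2.92 to -1.17. Of the 22 pairs, 6 had both probes in 1 named gene and 12 had no gene name. The pairs in genes named by the rule lay in Rbfox1, a splicing factor of neurons and muscle (-2.73), Bank1, a scaffold of B cell signalling (-2.41), Polk, a translesion DNA polymerase (-2.26), Parp8, a member of the poly(ADP-ribose) polymerase family (-1.81), and Dock4, an activator of small GTPases (-1.36). The pair with the lowest mean, -2.92, held the chromosome 12 probe that differed between tumours.

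Members lay on all 19 autosomes at unequal shares. Chromosome 13 had the highest share, 78 of 7590 probes (1.03%), then chromosome 12 with 71 (0.994%), chromosome 9 with 72 (0.824%), chromosome 14 with 61 (0.775%) and chromosome 4 with 76 (0.762%). Chromosome 19 had the lowest, 9 of 4420 (0.204%), then chromosome 8 with 22 (0.270%), chromosome 16 with 20 (0.319%) and chromosome 18 with 19 (0.338%). Without tumour 252 in the choice, chromosome 12 came first at 1.26% and chromosome 19 again last at 0.249%. These shares were not adjusted for shifts of whole chromosomes. In tumour 244 the median of all probes was -0.30, -0.38, -0.22, 0.07 and -0.21 on chromosomes 13, 12, 9, 14 and 4. It was 0.08, 0.34, 0.32 and 0.35 on chromosomes 19, 8, 16 and 18. How far such shifts set the shares was not tested. At the same threshold, 41 of 4061 probes (1.01%) passed in the chromosome 11 window, 72 of 3635 (1.98%) in the chromosome 7 window, 5 of 8723 (0.0573%) on X and 15 of 122 (12.3%) on Y. X and Y counts go with the medians of those chromosomes given above. With X centred on its own median, a setting chosen after seeing the data, 37 of 8721 X probes (0.424%) passed.

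**Figure D4:**
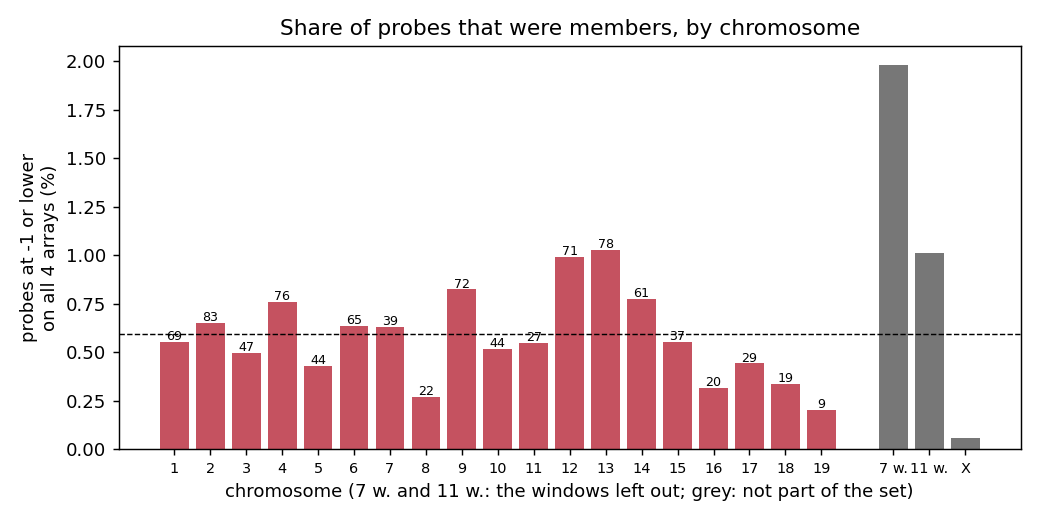
Share of probes at -1 or lower on all 4 arrays (vertical, %) by chromosome, with the number of members above each red bar and the dashed line at the share of all autosomal probes outside the windows, 0.593%. Grey bars are the windows left out of the choice and X. Bars run from 0.204% on chromosome 19 to 1.03% on chromosome 13, and the chromosome 7 window reaches 1.98%.

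Within chromosomes members were spread widely. Of 485 bins of 5 Mb, 155 held no member (138 without tumour 252 in the choice), and the 10 fullest held 117 members (12.8%) on 2.27% of the probes. The fullest were chromosome 6 from 55 to 60 Mb with 16 members on 339 probes, chromosome 4 from 75 to 80 Mb with 14 on 250, and chromosome 14 from 115 to 120 Mb with 14 on 456. The chromosome 4 bin is that of Ptprd, and the chromosome 14 bin holds Gpc5 and Gpc6, a neighbouring pair of glypican genes.

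Members of tumour 244 shifted with all probes of their chromosome. On 17 of 19 chromosomes the median of the members and that of all probes lay on the same side of the other tumours, and on 17 also when tumour 252 was left out. In tumour 244 the median of the members on chromosome 8 was 0.31 above the mean of the other 3 tumours, and that of all chromosome 8 probes was 0.40 above it. For chromosome 16 the shifts were 0.25 for members and 0.29 for all probes, for chromosome 10 -0.33 and -0.24, for chromosome 4 -0.29 and -0.21, and for chromosome 6 -0.28 and -0.22. On chromosome 15, whose probes had medians of 0.26, 0.16, 0.36 and 0.29 in tumours 239, 240, 244 and 252, the member medians were -1.67, -1.74, -1.51 and -1.55. On chromosome 12, where all probes had medians of -0.38, -0.20, -0.38 and -0.24, members lay at -1.48, -1.24, -1.46 and -1.28. When each chromosome was centred on its own median, 958 probes passed, 838 of them members, and these are 91.9% of the members.

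By GeneName, the gene the array design gives a probe, members were named less often than other probes. A name was given for 494 members (54.2%) and for 60.9% of the other autosomal probes outside the windows. Just outside the threshold 60.2% were named, and 55.9% of the 476 probes with a highest array between -0.9 and -0.8. The share was 54.4% of 1015 when tumour 252 was left out. The 494 probes lay in 406 of the 16909 genes with a probe, and 351 of these had 1 member, 45 had 2 and 10 had 3 or more. Without tumour 252 in the choice 446 genes held a member, 47 of them 2 and 17 of them 3 or more. Members made up 0.507% of the probes of genes with 1 probe, 0.342% to 0.565% over the classes of genes with 2 to 50 probes, 0.815% for genes with 51 to 100 and 0.870% for genes with over 100. The share was thus higher in genes with over 50 probes, but it rests in part on a few genes. Ptprd (12 members), Gpc6 and Cntnap2 (5 each) are among the 45 members of genes with over 100 probes. Ctnnd2 (9), Lama2 and Grid1 (5 each) are among the 75 of genes with 51 to 100. Whether long genes in general hold more members was not tested.

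Ptprd had the most members, 12 of its 177 probes. They averaged -1.84, -1.85, -2.02 and -1.86 in tumours 239, 240, 244 and 252, and the highest member was at -1.18. The lowest, at -4.43, was well above background in the tumours on 3 of 4 arrays, and without it the mean over tumours was -1.66 in place of -1.89. The members spread over 1748 kb, with 122 other Ptprd probes between them, of which 98 lay above -0.5, and their median was -0.14. Choosing without tumour 252, 13 Ptprd probes passed.

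Ctnnd2 was second with 9 of 83 probes, at -2.10, -2.29, -2.22 and -2.15 in tumours 239, 240, 244 and 252. They spread over 668 kb, and 56 of the 58 other probes between them lay above -0.5, with a median of 0.34 that follows chromosome 15. Its deepest member averaged -4.14. Low probes and probes near the gene's median were therefore interleaved in both genes, and neither gene was low along its length. Of all autosomal probes, 6.88% lay at -0.5 or lower in the mean. Between the members, the share of other probes that low was above this in Ptprd and below it in Ctnnd2.

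The next genes had 5 members each. Gpc6, a glypican that carries heparan sulphate at the cell surface, had 5 of 115 probes, at -1.66, -1.77, -1.74 and -1.76 in tumours 239, 240, 244 and 252. Lama2, the laminin alpha-2 chain of basement membranes, had 5 of 61, at -1.40, -1.49, -1.78 and -1.51. Grid1, a delta-type glutamate receptor, had 5 of 72, at -1.52, -1.52, -1.55 and -1.48. Cntnap2, a neurexin-family adhesion protein, had 5 of 218, at -1.30, -1.43, -1.74 and -1.40. In each the median of the gene's other probes lay between -0.10 and 0.02. Tumour 244 was the lowest of the 4 in Lama2, Grid1 and Cntnap2.

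Of the genes with 3 members, Sv2c, a synaptic vesicle protein, had 3 of 16 probes, at -2.50, -2.37, -2.51 and -2.39 in tumours 239, 240, 244 and 252. Its mean over tumours was -2.44, and -2.01 over the 2 members well above background on all arrays. Edil3, a secreted integrin ligand, had 3 of 54 and averaged -1.36, and Dock4 had 3 of 43 and averaged -1.31. Dock4 lies on chromosome 12, and its other probes had a median of -0.35.

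**Figure D5:**
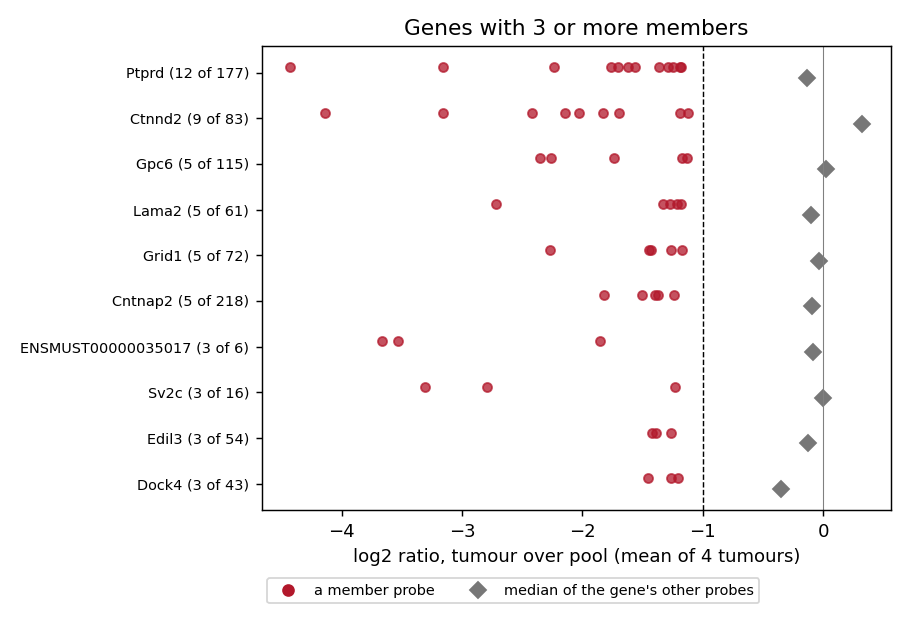
Mean log2 ratio of tumour over pool (horizontal) of each member probe (red) and the median of the same gene's other probes (grey) for the 10 genes with 3 or more members, listed with members of all probes. Members lie left of the dashed line at -1, the lowest of Ptprd and of Sv2c and 2 of ENSMUST00000035017 without measurable tumour signal on at least 1 array, and the other probes of every gene have medians between -0.35 and 0.32.

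The other 20 genes named by the rule had 2 members each. Dock3, an activator of small GTPases in neurons, was at -2.73, -3.23, -3.34 and -3.44 in tumours 239, 240, 244 and 252, with 1 of its 2 members not well above background in the tumours. Its mean over tumours was -3.19, but -1.98 on the other member and -2.34 under normexp. Atxn1, a nuclear corepressor, averaged -2.94, the lowest of the 20 on probes well above background and under normexp (-2.67), Nell1, a secreted protein of bone growth, -2.58, and Xylt1, which starts glycosaminoglycan chains, -2.58. Nmnat3, a mitochondrial enzyme of NAD synthesis, averaged -2.39, Syt1, the calcium sensor of synaptic vesicles, -1.94, and Rbms3, an RNA-binding protein, -1.91. Dlgap4, a postsynaptic scaffold, averaged -1.90, Dst, a cytoskeletal linker, -1.86, Mdga2, a synaptic adhesion protein, -1.85, and Lrrfip2, a regulator of Toll-like receptor signalling, -1.85. Cpne4, a calcium-dependent membrane-binding protein, averaged -1.85, Wdfy4, a factor of cross-presentation in dendritic cells, -1.84, and Mast4, a microtubule-associated kinase, -1.77.

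Of these 20, Tgfbr2 and Cyp7b1 have well known roles in liver. Tgfbr2, the type II receptor for TGF-beta, had 2 of 9 probes low, at -2.25, -2.02, -1.89 and -2.03 in tumours 239, 240, 244 and 252, and its other 7 had a median of -0.02. Cyp7b1, an oxysterol hydroxylase of bile acid synthesis, had 2 of 15, at -1.61, -1.76, -1.97 and -1.89, and its other 13 had a median of -0.07. The low probes were therefore a minority in both genes.

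Of 21 gene family lists, 6 held a member, and 7 without tumour 252 in the choice. The list of large adhesion and fragile-site genes held 40 members on 2964 probes (1.35%, beside 0.593% of all probes). They lay in 13 of its 31 genes, and the list held 42 members without tumour 252 in the choice. Ptprd (12 of 177 probes), Ctnnd2 (9 of 83) and Cntnap2 (5 of 218) gave 26 of the 40. Members also lay in Lrp1b, Macrod2 and Pcdh9 (2 each) and in Fhit, Immp2l and Cdh12 (1 each), among others. The share of 1.35% thus rests mainly on Ptprd, Ctnnd2 and Cntnap2, and does not describe the list as a whole. Members made up 0.815% of the probes of all genes with 51 to 100 probes and 0.870% for genes with over 100. These classes include Ptprd, Ctnnd2 and Cntnap2 themselves. Whether the list differs from other genes with as many probes was not tested. The median of all probes on that list was -0.03, beside 0.00 for all autosomal probes outside the windows. The list was drawn up with these data's earlier results known.

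Most families known to differ in copy number or sequence between mouse strains have few probes on the array, and their counts were small. The Skint genes, immunoglobulin-like proteins of skin and thymus, had 2 of 115 probes (1.74%, Skint5 and Skint6), the NLR inflammasome sensors 1 of 65 (1.54%, Naip5) and the defensins 1 of 20 (5%, Defb41), shares above 0.593% that rest on 1 or 2 probes. The zinc finger genes had 3 of 989 (0.303%). The enzymes of xenobiotic metabolism had 1 of 333, in Cyp2j5, a fatty acid epoxygenase of liver, at -2.19, -2.03, -1.93 and -1.90 in tumours 239, 240, 244 and 252. No member fell among 45 probes of NK cell receptors, 13 of NKG2D ligands, 20 of MHC genes, 14 of IFI200 genes, 22 of interferon-inducible GTPases or 86 of C-type lectins and Fc or Ig-like receptors. None fell among 67 probes of olfactory and 183 of vomeronasal receptors, 58 of serpins, 6 of keratin-associated and cornified-envelope genes, 5 of Speer genes or 1 of major urinary proteins. The list of genes with known strain copy differences, which names some genes of the lists above, held no member on 112 probes. With tumour 252 left out, the vomeronasal receptors had 1 and the other lists of this paragraph had the same counts. The antigen receptor and TRIM5-like lists had 0 probes outside the windows.

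Probe sequence differed in CpG content. A CpG was present in 406 members (44.5%) and in 36.1% of the other autosomal probes outside the windows, and 2 or more were present in 9.10% and 7.34%. Just outside the threshold 36.6% had one. Members made up 0.516% of probes without a CpG, 0.729% of those with 1, 0.688% of those with 2 and 1.03% of those with 3 or more, the last being 16 probes. Among the 1015 probes chosen without tumour 252, 44.2% held a CpG. In all 4 classes of pool signal the share with a CpG was higher among members, at 43.8% to 46.1%, than among all probes, at 35.3% to 37.0%. Of the 6 members shown first, 4 hold a CpG. The cause of this difference was not tested.

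Other sequence features were alike or lower. GC content averaged 36.9% in members and 36.8% in other probes. A run of 6 or more of the same base was present in 4.82% of members and 6.73% of other probes. No probe on the array held AGCT, the site of AluI, and 3 of 170305 held GTAC, the site of RsaI, none of them a member. Which enzymes digested the DNA is not given in the sources used here.

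In the opposite direction 122 autosomal probes outside the windows lay at 1 or higher on all 4 arrays. Gain of a single copy in every diploid cell would give 0.585, so 1 is not a matched cut to -1 and the counts are not compared. All 912 members kept a value on every array, and 42 of the 153764 probes lacked one on some array and could not be members.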

How the data were processed

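Genomic DNA of 4 liver tumours (Cy5) and of 1 pool of wild-type livers (Cy3) was measured on 2-colour Agilent mouse CGH arrays, all on 1 slide in 1 scan. Image reading used Agilent Feature Extraction, version 12.0.0 per the submitters' processing notes and 12.0.1.1 per the file headers, which name build mm9. Per the file headers, the deposited processed intensity had its background subtracted, was detrended and had its dyes scaled linearly. The deposited log10 ratio sets tumour over pool, with the same log10 values in the value table of the authors. Raw mean and background intensity were, per the file headers, scanner brightness. The deposited spot flags mark outliers and signal above background.

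Control spots (6575 per array) and outlier-flagged spots (95 to 120 per array) did not enter. The log2 ratio of tumour over pool was averaged per probe and centred on the autosomal median of its array, without loess or quantile normalisation. Neighbours are successive autosomal probes. Of 406 GeneNames, 374 matched a current and 8 an older symbol in a RefSeq table of GRCm38.p6, used for names only, and 24 kept the files' name. Genes were named for runs of 3 or more, 2 or more members, the 10 deepest members or a family list, up to 30 by most members and lowest mean, and further names were added after their values were seen. The members and lists were chosen with earlier results of these data known. No test was made of the members, since they were chosen on the same ratios, and an outlier rule only marked results by tumour. The rule and the runs were tested on simulated probes. Alternatives covered the centring, background correction, value table, lowess, dim probes, outlier spots, threshold, windows, run definition and leaving out each tumour. Software was limma 3.58.1 in R 4.3.3, and statsmodels 0.14.6, scipy 1.17.1, matplotlib 3.10.9, pandas 2.3.3 and numpy 2.4.6 in Python 3.11.15.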

Additional observations from a re-analysis of the deposited data

Results flagged for a closer look

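An outlier rule marked results in which 1 tumour lay far from the other 3. For independent results, chance would mark about 1 in 20. Nearly all of the 70 results given by tumour rest on member values, which were cut at -1, and many of them share probes. Of the 70, 5 were marked, and no conclusion is drawn from that count. In all 5 the tumour far from the others was 244. Its share of autosomal probes at -1 or lower was 1.52%, against 1.06% to 1.13% in the other 3. Its mean over the Ptprd members was -2.02, over the Xylt1 members -2.90 and over the Ptprd run -1.78, against at lowest -1.86, -2.50 and -1.48 in the others. Its median over the members of chromosome 4 was -1.72, against at lowest -1.45. Ptprd, its run and the chromosome 4 members share probes, and all chromosome 4 probes of tumour 244 had a median of -0.21. Outside the autosomes, 0.0573% of X probes and 12.3% of Y probes met the threshold on all 4 arrays, values that go with the medians of those chromosomes.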

How the results depend on the processing

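The number of members ranged from 857 to 1154 over another centring, normexp, the authors' value table, lowess, dim-probe and outlier-spot settings and wider windows, and was 1672 at a threshold of -0.8, 291 at -1.5 and 1518 when only the mean had to reach -1. Normexp kept 77.9% of the 912 members. Runs of 3 or more numbered 2 among probes well above background, without the 2 of lowest mean, 3 under normexp and 1 at -1.5, and the share of members in runs was 8.77% with 1 non-member allowed. Leaving out each tumour gave 965 to 1049 members, 4 runs of 3 or more in every case, 6.01% to 7.44% of members in runs, 54.2% to 55.7% with a name and a median of -1.46 to -1.43. The 34 named genes and runs, some of which share probes, stayed at -1 or lower in the mean under all 7 other scales. They hold only probes chosen at -1 or lower, and several of these scales change the ratios little. That they stayed low thus follows largely from the choice. Dock3, ENSMUST00000035017 and the runs without a name and in that transcript moved by over 1.5 times under normexp and on probes well above background. No paired analysis was possible because there is 1 group. Deep ratios of 33 members are bounds, and a single pool leaves out the spread among control livers.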
